A study of Mus musculus with 26 samples.

Results

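Mammary tumor organoids given ASO2, an antisense oligonucleotide against the long noncoding RNA Malat1, were compared with Mock organoids of the same study. The sample titles put 4 libraries in each group, 8 of the 26 libraries in all, and the number in each title (n1 to n4) was used to pair them. Both groups were cultured from tumors of MMTV-PyMT mice of the C57BL/6 strain, embedded in Matrigel and fed with FGF2, and polyadenylated RNA was sequenced from each culture. In MMTV-PyMT mice the mouse mammary tumor virus promoter drives the polyoma middle T oncogene in mammary epithelium, so ASO2 and Mock organoids alike carry this transgene. ASO2 organoids received 500 nM of oligonucleotide over 6 days, renewed after 3 days. The labels name no oligonucleotide for Mock organoids and do not say what those cultures received instead. Organoids given a further Malat1 oligonucleotide, ASO1, or a control oligonucleotide, scASO, at the same dose and time (4 libraries each) were fitted together with them. How many mice or cultures stand behind the libraries is not stated, so p-values speak for the spread among these libraries alone, and part of that spread may be technical.

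Malat1 is one of the most abundant nuclear transcripts of mammalian cells and gathers in nuclear speckles, where splicing factors are stored. An antisense oligonucleotide of the kind used against it pairs with the RNA in the nucleus and recruits RNase H, which cuts the RNA strand. Mammary epithelium has an inner luminal layer, which makes milk, and an outer basal layer, which contracts and holds on to the basement membrane. The keratins Krt5 and Krt14 mark the basal layer, and organoids of mammary tumors hold cells of both kinds.

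Reads assigned to genes numbered about 36132500 to 65146000 in ASO2 libraries and 25952100 to 40515700 in Mock libraries. The 16 luminal epithelial markers checked were all above the filter on low counts and together held 7465 to 11032 CPM (counts scaled to a common library size) in ASO2 organoids and 7715 to 8173 CPM in Mock organoids. T and B lymphocyte markers together held 3.47 to 9.50 CPM in ASO2 organoids and 2.21 to 5.59 CPM in Mock organoids, and 6 of the 20 markers (Nkg7, Gzmb, Ms4a1, Cd2, Cd8a and Ncr1) had no read in any of the 8 libraries. Libraries with the same number deviated together from their group means, with a correlation across genes of 0.469 to 0.880 for the 4 pairs of ASO2 and Mock. ASO2 n1 had the lowest of these, 0.469 with Mock n1. The libraries numbered 4 stood apart from the others in keratins of squamous epithelium and hair, as the values below show. Fewer cells of a type and less RNA per cell cannot be told apart in libraries of whole organoids.

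Malat1 itself, the target, lies at chr19:5795690-5802672 on the minus strand (GRCm38, GENCODE) and is annotated as a lincRNA. It was measured at 1343, 198, 88.6 and 287 CPM in ASO2 n1 to n4, against 694, 1447, 667 and 1261 CPM in Mock n1 to n4. ASO2 n2, n3 and n4 lay below every Mock library, whereas the library labelled ASO2 n1 lay above 3 of the 4 Mock libraries, and so goes against its label. The geometric mean over the 4 ASO2 libraries was 29.9% of that over Mock, a log2 ratio of -1.74. An exact two-sided permutation test over the 70 splits did not place this difference beyond the spread between libraries (p = 0.114). Without ASO2 n1 the geometric mean was 17.9% of that over Mock (log2 ratio -2.48). That value is a description, because the library was left out for its Malat1 level. Its exact permutation p, 0.0286, is the smallest that 3 libraries against 4 allow. In the fit across all genes Malat1 was at -1.66 ± 0.70 (log2 fold change ± SE) by edgeR's quasi-likelihood test, adjusted by Benjamini-Hochberg (adjusted p = 0.26), and at -2.47 ± 0.58 without ASO2 n1 (adjusted p = 0.0636). A second library went against its label: scASO n2 held 106 CPM of Malat1, whereas scASO n1, n3 and n4 held 762, 729.8 and 1129.9 CPM. Over the other genes, the deviations of ASO2 n1 correlated more with the libraries numbered 2 (0.801 with Mock n2 and 0.698 with ASO1 n2) than with those numbered 1 (0.469 with Mock n1 and 0.546 with ASO1 n1). Those of scASO n2 correlated more with the libraries numbered 1 (0.717 with Mock n1 and 0.716 with ASO1 n1) than with those numbered 2 (0.540 with Mock n2 and 0.506 with ASO1 n2). The numbers of these 2 libraries, which enter the block, are therefore in doubt as well. The labels were kept as deposited, and results are given with and without ASO2 n1.

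Neat1, which lies next to Malat1 and is the RNA scaffold of paraspeckles, was measured at 577, 759, 881 and 1286 CPM in ASO2 n1 to n4, against 841, 688, 831 and 1661 CPM in Mock n1 to n4. The groups overlapped, and its difference of -0.16 ± 0.16 did not pass the test (adjusted p = 0.68). Frmd8, another neighbour of Malat1 on chromosome 19, was at 59.8, 89.6, 105 and 98.5 CPM in ASO2 n1 to n4, against 69.8, 52.7, 75.3 and 69.2 CPM in Mock n1 to n4. ASO2 n2, n3 and n4 each exceeded their Mock partner, and ASO2 n1 did not. The difference of Frmd8 was 0.39 ± 0.13 over all libraries (adjusted p = 0.162) and 0.54 ± 0.10 without ASO2 n1 (adjusted p = 0.0328). Of the 14 tested neighbours none passed the test over all libraries by edgeR, against 1.82% of all genes. Frmd8 was the 1 neighbour called without ASO2 n1, against 0.932% of all genes. At an unadjusted p under 0.05 edgeR held 5 of the 14, against 16.2% of all genes. DESeq2 called 0 of the 14 and limma 1, against 884 and 476 of 17126 genes.

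**Figure D1:**
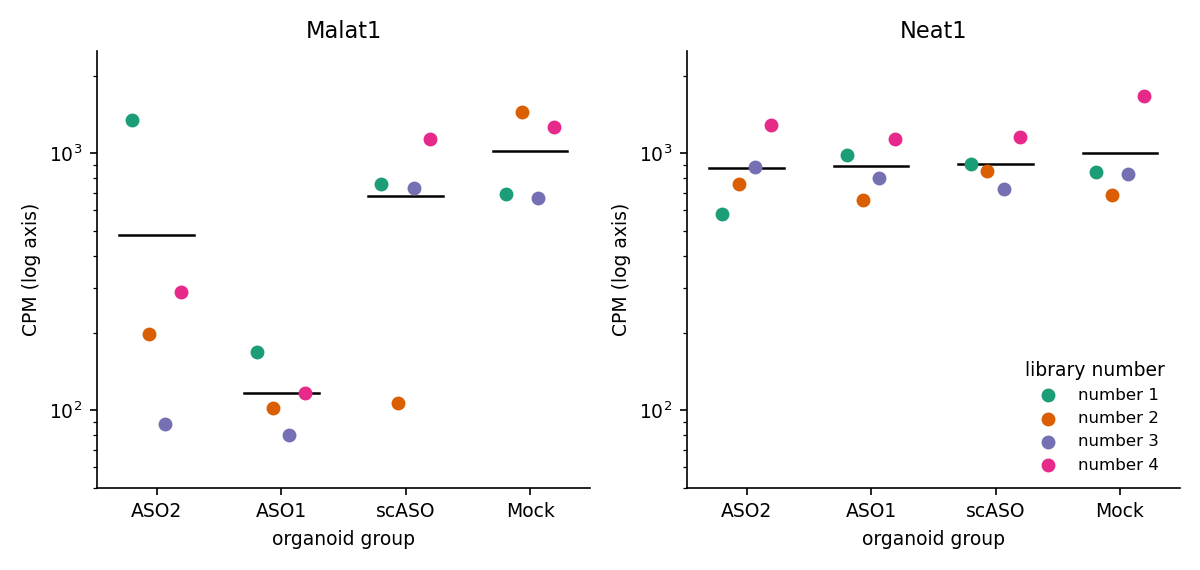
Malat1 (left) and Neat1 (right) in CPM on a log axis, 1 point for each organoid library colored by its number, with the group mean as a bar. Malat1 is at 88.6 to 287 CPM in 3 ASO2 libraries and at 1343 CPM in ASO2 n1, against 667 to 1447 CPM in Mock; Neat1 overlaps between the groups.

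Over all libraries, more genes were called higher than lower with ASO2, while the median log2 fold change of all genes tested was -0.007. Of 17126 genes tested, edgeR's quasi-likelihood test, with p-values adjusted by Benjamini-Hochberg, called 312 at an adjusted p under 0.05, or 1.82%. Of these, 249 were higher in ASO2 than in Mock organoids (1.45% of the genes tested) and 63 were lower (0.368%). The change exceeded 1 on the log2 scale in 81 genes that rose and was under -1 in 10 that fell. The ASO2 and Mock CPM ranges did not overlap in 18 of the 312, and 0.829% of all genes had such ranges. Without ASO2 n1, 162 of 17373 genes were called (0.932%), 130 of them higher (0.748%) and 32 lower (0.184%). Both fits called 138 genes, 44.2% of the first list and 85.2% of the second, and all 312 genes of the first list kept their direction without ASO2 n1. Both fits share every library but ASO2 n1, so the kept direction is no independent check of the calls.

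These counts rest on the pairing and on the spread shared by the 16 organoid libraries. edgeR called 0 genes without the replicate block (312 at an unadjusted p under 0.05) and 0 when the 8 ASO2 and Mock libraries were fitted alone (1752 at an unadjusted p under 0.05). In the same design over 16 libraries, DESeq2 called 884 genes and limma 476. Leaving out ASO2 n2 left 11 calls, and leaving out Mock n1, n2, n3 or n4 left 89, 63, 136 or 137. Leaving out both ASO2 n1 and scASO n2 gave 593 calls, 393 higher and 200 lower.

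**Figure D2:**
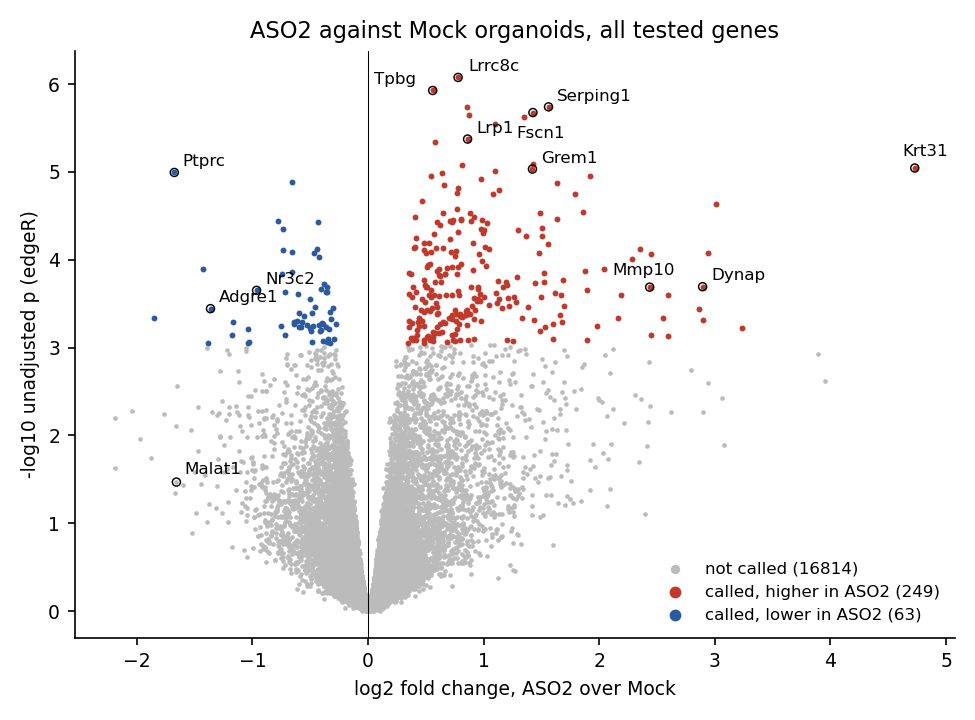
Log2 fold change of ASO2 over Mock (x axis) against -log10 of the unadjusted p of edgeR's quasi-likelihood test (y axis) for 17126 genes over all libraries. The 249 genes called higher (red) reach further from 0 than the 63 called lower (blue), and Malat1 (open circle) lies among the genes not called.

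Mmp10, the secreted matrix protease stromelysin, was at 39.0, 82.2, 4.11 and 20.2 CPM in ASO2 n1 to n4, against 3.91, 7.99, 2.47 and 7.55 CPM in Mock n1 to n4. Each ASO2 library exceeded its Mock partner, by 3.30, 3.35, 0.72 and 1.41 on the log2 CPM scale in pairs 1 to 4, and the groups overlapped at ASO2 n3. Mmp10 rose by 2.44 ± 0.48 (adjusted p = 0.0261), and without ASO2 n1 the difference was 1.99 ± 0.45 (adjusted p = 0.0603). Tpbg, a surface glycoprotein of the trophoblast that dampens Wnt signaling, was at 36.6, 40.9, 23.5 and 37.0 CPM in ASO2 n1 to n4, against 26.0, 27.3, 14 and 27.5 CPM in Mock n1 to n4. The libraries numbered 3 were the lowest of both groups, and ASO2 n3 lay among the Mock libraries. Tpbg rose by 0.56 ± 0.07 (adjusted p = 0.00572), with an adjusted p of 0.0103 without ASO2 n1. Fosl1, a subunit of the AP-1 transcription factor, was at 3.45, 6.54, 0.492 and 3.30 CPM in ASO2 n1 to n4, against 0.820, 0.866, 0.332 and 2.12 CPM in Mock n1 to n4. Its level was low, and every ASO2 library but n3 lay above all 4 Mock libraries. Fosl1 rose by 1.6 ± 0.37 (adjusted p = 0.0472) and was at 1.5 ± 0.40 without ASO2 n1 (adjusted p = 0.098). It was chosen after its values were seen. Of 22 tested immediate early genes, edgeR called 1 higher, against 1.45% of all genes, and 0 lower, with a median of 0.08. Without ASO2 n1 it called 0 of the 22.

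AP-1 is a classical regulator of stromelysin genes. The promoter windows of Mmp10 and Tpbg are shown with the AP-1 motif TGACTCA in capitals (TGAGTCA is the same motif on the other strand). The windows are from RefSeq on GRCm38.p6, both on the plus strand, 5′ to 3′, from 250 bases before to 50 bases after the gene's start. Both hold the motif, in Tpbg in 1 of the 2 windows listed for it, and were picked by hand among the named genes that do. Of the 67 named genes with a window in the table, 6 held the motif, namely 3 of 39 that rose (Mmp10, Tpbg and Nfkbie), 2 of 18 that fell (Capn6 and Il15ra) and 1 of 10 not called (Cd68). The motif starts 63 bases before the start of Mmp10, at chr9:7502092-7502391, and 232 bases before the start of Tpbg, at chr9:85842130-85842429. On either strand it occurs in 5.2% of the 32851 promoter windows of the table, and no binding was measured here. This share is per window, whereas the counts of named genes are per gene and take any of its windows, so they are not like measures.
Mmp10: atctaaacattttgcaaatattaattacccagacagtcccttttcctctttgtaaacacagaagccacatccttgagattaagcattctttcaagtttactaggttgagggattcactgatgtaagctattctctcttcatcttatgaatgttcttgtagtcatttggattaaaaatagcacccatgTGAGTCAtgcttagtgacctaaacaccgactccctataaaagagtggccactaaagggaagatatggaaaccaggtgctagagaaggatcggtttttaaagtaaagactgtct
Tpbg: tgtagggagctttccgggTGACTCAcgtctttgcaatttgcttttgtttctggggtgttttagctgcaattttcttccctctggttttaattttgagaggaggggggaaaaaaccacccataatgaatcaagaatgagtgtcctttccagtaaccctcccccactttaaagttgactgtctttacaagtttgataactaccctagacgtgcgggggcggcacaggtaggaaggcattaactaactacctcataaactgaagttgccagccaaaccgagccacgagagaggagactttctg

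Dynap, a transmembrane protein that binds dynactin, was at 26.4, 72.5, 3.27 and 5.76 CPM in ASO2 n1 to n4, against 1.88, 4.94, 1.42 and 2.16 CPM in Mock n1 to n4. The libraries numbered 3 held the least Dynap in both groups, which overlapped. Dynap rose by 2.89 ± 0.57 (adjusted p = 0.0261). Ankrd1, an ankyrin repeat protein known as a target of the YAP coactivator, was at 8.98, 16.7, 0.836 and 2.57 CPM in ASO2 n1 to n4, against 0.989, 1.98, 0.309 and 0.759 CPM in Mock n1 to n4. Ankrd1 rose by 2.59 ± 0.52 (adjusted p = 0.0275). Itga7, an integrin subunit that binds laminin, was at 48.4, 88.3, 8.63 and 28.1 CPM in ASO2 n1 to n4, against 5.45, 20.1, 3.32 and 16.7 CPM in Mock n1 to n4. Itga7 rose by 1.88 ± 0.35 (adjusted p = 0.0223). Nrp2, a coreceptor for semaphorins and for vascular growth factors, was at 66.2, 126, 9.0 and 115 CPM in ASO2 n1 to n4, against 12.5, 22.6, 4.82 and 44.1 CPM in Mock n1 to n4. It rose by 1.86 ± 0.30 (adjusted p = 0.0132). In each of these 4 genes every ASO2 library but n3 lay above all 4 Mock libraries, and pairs 1 and 2 differed more than pairs 3 and 4. Without ASO2 n1, Itga7 and Nrp2 rose by 1.61 and 1.65 (adjusted p = 0.0455 and 0.0295), whereas Dynap and Ankrd1 were at 2.34 and 2.07 and missed the threshold (adjusted p = 0.0603 and 0.064).

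The genes with the lowest p-values included smaller differences with less spread between pairs. Lrrc8c, a subunit of the volume-regulated anion channel, was at 47.9, 56.9, 23.9 and 23 CPM in ASO2 n1 to n4, against 28.4, 31.6, 14.6 and 13.2 CPM in Mock n1 to n4. The 4 pairs differed by 0.75, 0.85, 0.71 and 0.80 on the log2 CPM scale, and Lrrc8c rose by 0.78 ± 0.09 (adjusted p = 0.00572). Serping1, the C1 inhibitor of complement, was at 18.5, 21.4, 5.26 and 11.4 CPM in ASO2 n1 to n4, against 3.38, 8.68, 2.59 and 4.04 CPM in Mock n1 to n4. It rose by 1.56 ± 0.19 (adjusted p = 0.00572). Fscn1, which bundles actin filaments in cell protrusions, was at 35.9, 65.3, 10.8 and 38.6 CPM in ASO2 n1 to n4, against 11.8, 16.8, 4.58 and 20.9 CPM in Mock n1 to n4. It rose by 1.43 ± 0.18 (adjusted p = 0.00572). Fads3, a lipid desaturase, was at 118, 169, 57.9 and 86.8 CPM in ASO2 n1 to n4, against 73.6, 69.6, 34.1 and 53.8 CPM in Mock n1 to n4. Fads3 rose by 0.85 ± 0.11 (adjusted p = 0.00572). Lrp1, a large endocytic receptor, was at 274, 409, 165 and 442 CPM in ASO2 n1 to n4, against 179, 248, 97.5 and 179 CPM in Mock n1 to n4. Lrp1 rose by 0.86 ± 0.11 (adjusted p = 0.00776). Igf2bp2, an RNA-binding protein, was at 20.6, 33.3, 4.20 and 21.0 CPM in ASO2 n1 to n4, against 8.78, 7.85, 1.57 and 10.6 CPM in Mock n1 to n4. It rose by 1.43 ± 0.20 (adjusted p = 0.0101). In Serping1, Fscn1, Fads3, Lrp1 and Igf2bp2, ASO2 n3 lay among the Mock libraries and the other ASO2 libraries lay above them all. Each of the 6 genes was higher in all 4 ASO2 libraries than in their Mock partners and stayed called without ASO2 n1, with adjusted p of 0.0103, 0.0103, 0.0109, 0.0109, 0.00629 and 0.0191.

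Further called genes with a large or well separated difference had varied functions. Zfpm2, a cofactor of GATA transcription factors, and Ccbe1, a secreted factor of lymphatic vessel growth, rose by 1.98 ± 0.44 and 1.89 ± 0.44 (adjusted p = 0.0385 and 0.0473), and neither was called without ASO2 n1 (adjusted p = 0.0924 and 0.105). Sncg, gamma-synuclein, was at 12.0, 20.9, 4.87 and 6.27 CPM in ASO2 n1 to n4, against 3.26, 4.78, 2.11 and 2.76 CPM in Mock n1 to n4. Stmn2, a microtubule-destabilizing protein best known from neurons, was at 2.78, 5.02, 1.94 and 4.40 CPM in ASO2 n1 to n4, against 0.844, 1.14, 1.21 and 1.08 CPM in Mock n1 to n4. In Sncg, Stmn2 and Ccbe1 every ASO2 library lay above every Mock library. Sncg and Stmn2 rose by 1.64 ± 0.27 and 1.63 ± 0.24 (adjusted p = 0.0132 and 0.0103), also without ASO2 n1 (adjusted p = 0.0328 and 0.0235). Ccdc9b rose by 1.48 ± 0.26 (adjusted p = 0.0172). Adamts7, a secreted metalloprotease, was at 36.8, 54.2, 22.4 and 23.7 CPM in ASO2 n1 to n4, against 36.6, 29.0, 14 and 12.3 CPM in Mock n1 to n4. The members of pair 1 were level, and its rise was 0.63 ± 0.12 over all libraries (adjusted p = 0.0253) and 0.79 ± 0.09 without ASO2 n1 (adjusted p = 0.00629).

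**Figure D3:**
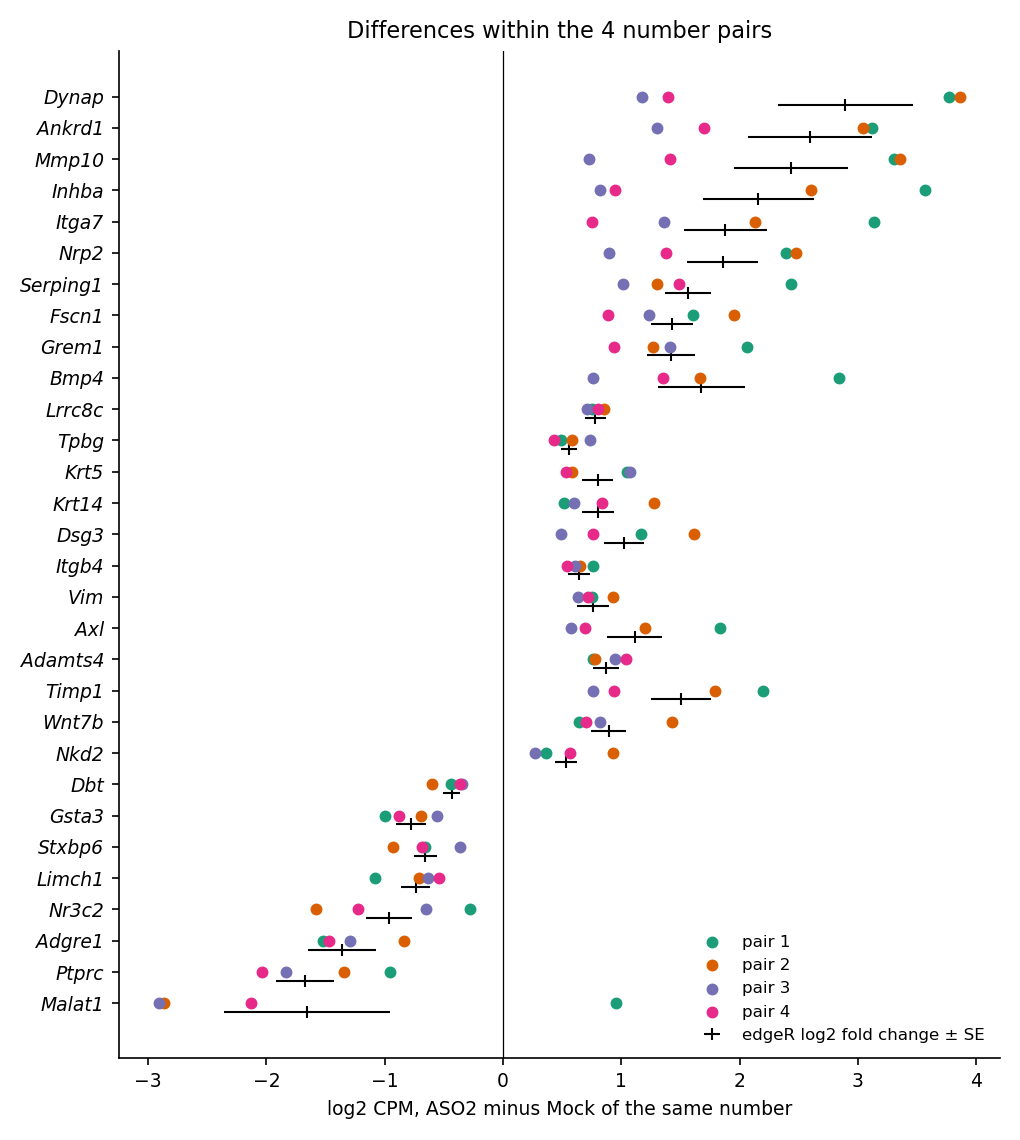
Log2 CPM of ASO2 minus Mock within the 4 number pairs (colored points) for named genes that rose or fell and for Malat1, with edgeR's log2 fold change ± SE over all libraries below each row of points. Genes that rose lie right of 0 in all 4 pairs, and Malat1 at the bottom lies left of 0 in pairs 2, 3 and 4 and right of 0, at 0.95, in pair 1. The genes that rose or fell were called in a paired fit, and some were picked for their sign in pairs 2, 3 and 4. Their agreement between pairs is therefore partly built in.

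Part of the basal layer's genes rose. Of 25 basal and myoepithelial genes, all tested, 7 passed the test in the upward direction and none downward, against 1.45% and 0.368% of all genes. Their median log2 fold change was 0.35, that of all genes -0.01, and their summed level was 5736 to 11388 CPM in ASO2 organoids and 4385 to 7780.1 CPM in Mock organoids. Krt5, the type II keratin of basal cells, was at 1598, 1922, 645 and 2822 CPM in ASO2 n1 to n4, against 773, 1285, 306 and 1947 CPM in Mock n1 to n4. It rose by 0.80 ± 0.13 (adjusted p = 0.0132). Its partner Krt14 was at 1166, 1702, 1326 and 3436 CPM in ASO2 n1 to n4, against 813, 702, 877 and 1929.6 CPM in Mock n1 to n4. It rose by 0.80 ± 0.13 (adjusted p = 0.0132). The libraries numbered 4 were highest in both groups, and the groups overlapped while every ASO2 library exceeded its Mock partner. Krt17, a further keratin of basal and wounded epithelium, rose by 0.98 ± 0.16 (adjusted p = 0.0144).

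Genes that anchor basal cells rose as well. Itgb4, the integrin subunit of hemidesmosomes, was at 524, 640.0, 357 and 675 CPM in ASO2 n1 to n4, against 309, 407, 234 and 465 CPM in Mock n1 to n4. It rose by 0.64 ± 0.09 (adjusted p = 0.0101). Col17a1, the transmembrane collagen of hemidesmosomes, was at 305, 331, 178 and 455 CPM in ASO2 n1 to n4, against 250.2, 259.6, 116 and 269 CPM in Mock n1 to n4. It rose by 0.50 ± 0.09 (adjusted p = 0.0172). Cdh3, the cadherin of basal cells, was at 74.5, 75.6, 52.5 and 91.0 CPM in ASO2 n1 to n4, against 45.2, 68.2, 27.7 and 55.7 CPM in Mock n1 to n4. It rose by 0.62 ± 0.10 (adjusted p = 0.0137). In all 3 genes ASO2 n3 lay among the Mock libraries and the other ASO2 libraries lay above them. The remaining called member, the intermediate filament Vim, is described with the mesenchymal genes. All 7 stayed called without ASO2 n1, with adjusted p of 0.023 for Krt14 and 0.0328 for Krt5.

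Of 25 tested genes of squamous keratinization and cornification, 4 rose (Krt6a, Dsg3, Sfn and Ppl) and none fell, against 1.45% and 0.368% of all genes, with a median of 0.39. Dsg3, a desmosomal cadherin of stratified epithelia, was at 110.0, 169.7, 61.1 and 425 CPM in ASO2 n1 to n4, against 48.9, 55.5, 43.6 and 251 CPM in Mock n1 to n4. It rose by 1.02 ± 0.17 (adjusted p = 0.0135). Krt6a, a keratin induced in wounded epidermis, was at 139, 249, 299 and 1401 CPM in ASO2 n1 to n4, against 63.5, 64.9, 212 and 837 CPM in Mock n1 to n4. It rose by 1.05 ± 0.19 (adjusted p = 0.0172). Both were several times higher in the libraries numbered 4 than in the others of their group. Sfn, the epithelial 14-3-3 protein, rose by 0.73 ± 0.12 (adjusted p = 0.0132). Ppl, a plakin of the cornified envelope, rose by 0.43 ± 0.09 (adjusted p = 0.0375) and missed the threshold without ASO2 n1 (adjusted p = 0.0659). Of 29 genes of epithelial junctions, the desmosome plaque genes Pkp1 and Dsp rose (2 genes, against 1.45% of all genes), by 0.52 ± 0.12 and 0.42 ± 0.10 (adjusted p = 0.0445 and 0.0408). Neither stayed called without ASO2 n1, where their adjusted p were 0.103 and 0.0603, and the median of the junction list was 0.11.

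Of 24 genes linked to mesenchymal transition, Axl, Fn1 and Vim rose (3 genes, against 1.45% of all genes) and none fell, and the median was 0.54. Vim, the intermediate filament of mesenchymal and some basal cells, was at 288, 359, 333 and 123 CPM in ASO2 n1 to n4, against 171, 189, 215 and 74.7 CPM in Mock n1 to n4. It rose by 0.76 ± 0.13 (adjusted p = 0.0172). Fn1, fibronectin, was at 2032, 2274, 583 and 906 CPM in ASO2 n1 to n4, against 919.6, 1363, 291 and 481 CPM in Mock n1 to n4. Fn1 rose by 0.95 ± 0.19 (adjusted p = 0.0268). Axl, a receptor tyrosine kinase for the ligand Gas6, was at 298, 438, 76.5 and 144 CPM in ASO2 n1 to n4, against 83.6, 191, 51.4 and 89.4 CPM in Mock n1 to n4. Axl rose by 1.11 ± 0.23 (adjusted p = 0.03). For Fn1 and Axl only ASO2 n1 and n2 lay above every Mock library, and for Vim every ASO2 library but n4 did. Without ASO2 n1, Vim stayed called (adjusted p = 0.0328), while Fn1 and Axl were at 0.86 and 0.88 (adjusted p = 0.0629 and 0.0639).

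Of 28 genes of matrix proteases and matrix remodelling, 5 rose (Timp1, Adamts4, Adamts1, Tnc and Mmp10) and none fell, against 1.45% and 0.368% of all genes, 26 had a positive log2 fold change, and the median was 0.88. Adamts4, an aggrecan-cleaving protease, was at 81.0, 105, 67.8 and 57.2 CPM in ASO2 n1 to n4, against 47.9, 61.0, 35.2 and 27.9 CPM in Mock n1 to n4. It rose by 0.87 ± 0.11 (adjusted p = 0.00572). Every ASO2 library but n4 lay above all Mock libraries. Timp1, an inhibitor of matrix metalloproteases, was at 163, 174, 13.9 and 16.2 CPM in ASO2 n1 to n4, against 35.6, 50.1, 8.19 and 8.43 CPM in Mock n1 to n4. It rose by 1.5 ± 0.25 (adjusted p = 0.0144). The libraries numbered 3 and 4 held far less Timp1 than those numbered 1 and 2 in both groups, and each ASO2 library exceeded its partner. Adamts1 rose by 1.02 ± 0.19 (adjusted p = 0.0214). Tnc, the matrix glycoprotein tenascin C, was at 1522, 2253, 242 and 447 CPM in ASO2 n1 to n4, against 234, 835, 89.0 and 260.2 CPM in Mock n1 to n4. It rose by 1.62 ± 0.32 (adjusted p = 0.0275). ASO2 n1 and n2 were the Tnc libraries above the Mock range. Without ASO2 n1, Adamts4 and Timp1 stayed called (adjusted p = 0.0109 and 0.0247), and Adamts1, Tnc and Mmp10 did not (adjusted p = 0.0508, 0.0547 and 0.0603).

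Markers of fibroblasts and pericytes were measured beside these genes. Of 22 such markers, 20 had a positive log2 fold change, 3 were called higher (Gsn, Pdpn and Cspg4) against 1.45% of all genes and none lower, with a median of 0.59. Together they held 871 to 1696 CPM in ASO2 organoids and 637 to 1469 CPM in Mock organoids, and none of the 22 was without reads. Gsn, an actin-severing protein, rose by 0.62 ± 0.12 (adjusted p = 0.0227). Pdpn, a surface glycoprotein that basal epithelium also carries, rose by 0.62 ± 0.14 (adjusted p = 0.0424). Cspg4, a pericyte proteoglycan, was at 5.82, 8.09, 3.34 and 6.34 CPM in ASO2 n1 to n4, against 3.50, 4.41, 2.21 and 2.24 CPM in Mock n1 to n4. It rose by 0.92 ± 0.19 (adjusted p = 0.0328), and was the 1 marker that stayed called without ASO2 n1 (adjusted p = 0.027). The part of such cells in the change of the basal, mesenchymal and matrix genes was not tested.

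Among genes of the Wnt pathway, in which secreted ligands act through receptors on beta-catenin and TCF factors, 5 of 24 rose, against 1.45% of all genes, none fell, and the median was 0.14. The ligand Wnt7b was at 49.8, 73.4, 27.1 and 20.4 CPM in ASO2 n1 to n4, against 31.9, 27.3, 15.3 and 12.5 CPM in Mock n1 to n4. It rose by 0.89 ± 0.15 (adjusted p = 0.0132). Wnt10a, a ligand of mammary and skin appendages, was at 10.8, 13.8, 4.87 and 27.4 CPM in ASO2 n1 to n4, against 7.50, 8.43, 2.4 and 11.8 CPM in Mock n1 to n4. It rose by 0.86 ± 0.18 (adjusted p = 0.0332). ASO2 n1 and n2 exceeded the Mock range for Wnt7b, and ASO2 n2 and n4 did for Wnt10a. Wnt5a, which acts mostly without beta-catenin, rose by 0.62 ± 0.14 (adjusted p = 0.038). The transcription factor Tcf7 rose by 0.40 ± 0.08 (adjusted p = 0.0323), and Nkd2, an inhibitor that binds Dishevelled, by 0.53 ± 0.09 (adjusted p = 0.0169). Wnt7b and Nkd2 stayed called without ASO2 n1 (adjusted p = 0.0304 and 0.0247), and Wnt10a, Wnt5a and Tcf7 did not (adjusted p = 0.0508, 0.0815 and 0.0708).

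In the TGF-beta and BMP family, 3 of 24 tested genes rose, against 1.45% of all genes, and none fell, with a median of 0.29. Inhba, the subunit of activin A, was at 77.8, 157, 3.71 and 57.2 CPM in ASO2 n1 to n4, against 6.54, 25.8, 2.09 and 29.6 CPM in Mock n1 to n4. It rose by 2.16 ± 0.47 (adjusted p = 0.0362). Bmp4, a BMP ligand, was at 1.86, 3.21, 1.65 and 53.2 CPM in ASO2 n1 to n4, against 0.217, 0.977, 0.949 and 20.8 CPM in Mock n1 to n4. Most of its reads were in the libraries numbered 4. Bmp4 rose by 1.68 ± 0.37 (adjusted p = 0.0375). Grem1, a secreted antagonist that binds BMP ligands, was at 14.9, 19, 5.70 and 10.3 CPM in ASO2 n1 to n4, against 3.52, 7.87, 2.11 and 5.35 CPM in Mock n1 to n4. It rose by 1.42 ± 0.20 (adjusted p = 0.0101). For Inhba and Grem1 every ASO2 library but n3 lay above all Mock libraries. Bmp4 and Grem1 stayed called without ASO2 n1 (adjusted p = 0.0445 and 0.0192), and Inhba was at 1.71 ± 0.42 (adjusted p = 0.0728). Ereg, an ErbB ligand, was the 1 called gene of 27 tested for FGF feedback and ErbB ligands, against 1.45% of all genes called higher. Ereg rose by 0.84 ± 0.18 (adjusted p = 0.0338) and was not called without ASO2 n1 (adjusted p = 0.0738). Cxcl3, a chemokine that attracts neutrophils, was the 1 called gene of 31 tested chemokines and acute phase genes, again against 1.45%. It was at 1.91, 5.28, 0.123 and 2.74 CPM in ASO2 n1 to n4, against 0.0724, 0.475, 0.0712 and 1.04 CPM in Mock n1 to n4, under 1 CPM in 3 of the 4 Mock libraries and in ASO2 n3. Cxcl3 rose by 2.87 ± 0.60 (adjusted p = 0.0326), and without ASO2 n1 it was at 2.33 ± 0.52 and not called (adjusted p = 0.0547).

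Of 22 genes of cholesterol synthesis and uptake, 21 had a positive log2 fold change and 1 passed the test, against 1.82% of all genes, with a median of 0.17. This was Mvd, a decarboxylase of the mevalonate pathway, which was at 64.1, 92.1, 70.3 and 84.2 CPM in ASO2 n1 to n4, against 56.2, 63.7, 53.1 and 69.7 CPM in Mock n1 to n4. It rose by 0.35 ± 0.07 (adjusted p = 0.0223). Every ASO2 library but n1 lay above all Mock libraries. Mvd stayed called without ASO2 n1 (adjusted p = 0.0247).

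Of 19 macrophage markers tested, 16 had a negative log2 fold change, 2 fell (Adgre1 and Ptprc) against 0.368% of all genes, none rose, and the median was -0.64. Ptprc, the surface phosphatase CD45 of blood cells, was at 0.510, 0.201, 0.983 and 0.750 CPM in ASO2 n1 to n4, against 1.04, 0.586, 3.63 and 3.24 CPM in Mock n1 to n4. It fell by 1.68 ± 0.24 on the log2 scale (adjusted p = 0.0101), and by 1.93 ± 0.22 without ASO2 n1 (adjusted p = 0.00629). Adgre1, the F4/80 antigen of mouse macrophages, was at 0.715, 0.573, 2.19 and 2.54 CPM in ASO2 n1 to n4, against 2.15, 1.06, 5.43 and 7.11 CPM in Mock n1 to n4. It fell by 1.36 ± 0.29 (adjusted p = 0.0326), and without ASO2 n1 the difference was -1.41 ± 0.32 (adjusted p = 0.0597). Levels of both were low, each ASO2 library was below its Mock partner, and ASO2 n1 and n2 lay below every Mock library. C1qa, a chain of complement C1q made by macrophages, was at 2.14, 0.860, 6.49 and 2.07 CPM in ASO2 n1 to n4, against 4.97, 1.65, 10.8 and 6.63 CPM in Mock n1 to n4, a difference of -1.13 ± 0.29 that missed the threshold (adjusted p = 0.0707).

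The 3 markers with a positive log2 fold change were Cd14, at 0.38 ± 0.10 (adjusted p = 0.0731), Cd68, at 1.32 ± 0.39 (adjusted p = 0.109), and Cd163, at 0.07 ± 0.42 (adjusted p = 0.96). Cd14 is an endotoxin coreceptor that epithelia also make, and it was at 394, 433, 122 and 155 CPM in ASO2 n1 to n4, against 313, 315, 102 and 109.5 CPM in Mock n1 to n4, well above the other markers named. The summed level of the 19 markers was 239 to 510.2 CPM in ASO2 organoids and 267 to 366 CPM in Mock organoids, which overlapped. Ly86 and Dock2, both genes of blood cells outside the list, fell by 1.85 ± 0.40 and 1.04 ± 0.23 (adjusted p = 0.0362 and 0.0399). They were picked after their values were seen, and neither was called without ASO2 n1 (adjusted p = 0.0508 and 0.098). Ly86 was at 0.179, 0.0860, 0.369 and 0.0798 CPM in ASO2 n1 to n4, against 0.386, 0.195, 1.14 and 0.839 CPM in Mock n1 to n4, so few reads stand behind it.

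Genes of other functions fell as well. Nr3c2, the mineralocorticoid receptor, was at 8.50, 3.96, 6.96 and 3.94 CPM in ASO2 n1 to n4, against 10.3, 11.9, 11 and 9.31 CPM in Mock n1 to n4. The groups did not overlap, and Nr3c2 fell by 0.96 ± 0.19 (adjusted p = 0.0273), also without ASO2 n1 (adjusted p = 0.0445). Gsta3, a glutathione transferase, was at 3.01, 2.67, 25 and 10.6 CPM in ASO2 n1 to n4, against 6.05, 4.36, 36.8 and 19.5 CPM in Mock n1 to n4. Gsta3 fell by 0.78 ± 0.13 (adjusted p = 0.0132). It was the 1 gene called of 30 glutathione and redox enzymes, against 0.368% of all genes called lower. Stxbp6, a syntaxin-binding protein, was at 27.5, 20.0, 34.4 and 21.2 CPM in ASO2 n1 to n4, against 43.5, 38.1, 44.4 and 34.2 CPM in Mock n1 to n4. Stxbp6 fell by 0.66 ± 0.10 (adjusted p = 0.0103). Limch1, a regulator of nonmuscle myosin, was at 8.65, 6.82, 21.7 and 17.9 CPM in ASO2 n1 to n4, against 18.4, 11.2, 33.8 and 26.0 CPM in Mock n1 to n4. Limch1 fell by 0.74 ± 0.12 (adjusted p = 0.0144). For Gsta3 and Limch1, ASO2 n1 and n2 lay below every Mock library, and for Stxbp6 every ASO2 library but n3 did. Rerg, a small GTPase first described as estrogen-regulated, fell by 0.73 ± 0.13 (adjusted p = 0.0172). Acss1, the mitochondrial acetyl-CoA synthetase, was at 27.3, 21.6, 48.9 and 24.4 CPM in ASO2 n1 to n4, against 46.8, 49.8, 62.6 and 39.6 CPM in Mock n1 to n4. Acss1 fell by 0.75 ± 0.14 (adjusted p = 0.0225). Elastin (Eln) was at 5.74, 3.70, 8.06 and 1.68 CPM in ASO2 n1 to n4, against 7.65, 12.3, 14.5 and 3.40 CPM in Mock n1 to n4. It fell by 1.03 ± 0.24 (adjusted p = 0.0483). Rbmx, an RNA-binding protein of the hnRNP family, was at 54.0, 43.6, 48.8 and 32.5 CPM in ASO2 n1 to n4, against 80.8, 65.3, 62.8 and 38.8 CPM in Mock n1 to n4. Rbmx fell by 0.44 ± 0.08 (adjusted p = 0.0172). For Eln and Rbmx, ASO2 n4 alone lay below every Mock library. Without ASO2 n1, Acss1 and Eln missed the threshold (adjusted p = 0.0593 and 0.0812).

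The remaining lower genes named by the same rule were Capn6, Scrg1, Bex2, Aass, Sidt1, Il15ra and Paip2b. Capn6, a calpain family member that lacks protease activity, and Scrg1 fell by 1.18 ± 0.27 and 1.04 ± 0.24 (adjusted p = 0.0445 and 0.049), and Bex2 by 0.75 ± 0.17 (adjusted p = 0.0385). These 3 were not called without ASO2 n1 (adjusted p = 0.0778, 0.115 and 0.098). Aass, an enzyme of lysine breakdown, fell by 0.64 ± 0.14, and Sidt1, a transmembrane protein, by 0.65 ± 0.12 (adjusted p = 0.0375 and 0.0223). Il15ra, the private receptor chain of interleukin 15, was at 28.3, 22.7, 20.8 and 17.3 CPM in ASO2 n1 to n4, against 29.3, 43.3, 28.6 and 28.9 CPM in Mock n1 to n4. Every ASO2 library lay below every Mock library, though ASO2 n1 by little, and Il15ra fell by 0.55 ± 0.12 (adjusted p = 0.0356). Paip2b, an inhibitor of translation that binds poly(A)-binding protein, fell by 0.42 ± 0.08 (adjusted p = 0.0181). Aass, Sidt1, Il15ra and Paip2b stayed called without ASO2 n1 (adjusted p = 0.0247, 0.041, 0.0295 and 0.0191).

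Of the 162 genes called without ASO2 n1, 24 were not called over all libraries, 12 higher and 12 lower in ASO2 organoids. Of these, 3 that fell are named here. Atg4c, a protease of autophagosome formation, was at 16.2, 7.43, 10.4 and 8.84 CPM in ASO2 n1 to n4, against 18.4, 17.1, 20.1 and 13.3 CPM in Mock n1 to n4, and Rev1, a polymerase that copies damaged DNA, at 16.3, 11.3, 8.90 and 12.0 CPM in ASO2 n1 to n4, against 19.5, 17.0, 15.5 and 20.3 CPM in Mock n1 to n4. In both genes ASO2 n1 lay within the Mock range and ASO2 n2, n3 and n4 lay below it. Without it Atg4c fell by 0.97 ± 0.13 and Rev1 by 0.76 ± 0.12 (adjusted p = 0.0109 and 0.0191), whereas over all libraries they were at -0.70 and -0.59 (adjusted p = 0.0645 and 0.0569). Xbp1, the transcription factor of secretory cells, was at 586, 419, 1287 and 1109 CPM in ASO2 n1 to n4, against 526, 821, 1649.8 and 1901 CPM in Mock n1 to n4. It was at -0.49 ± 0.14 over all libraries (adjusted p = 0.101) and fell by 0.64 ± 0.12 without ASO2 n1 (adjusted p = 0.0328).

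Against 1.82% of all genes, edgeR called no member of other groups over all libraries. These were 28 milk protein and secretory genes (median -0.18), 29 genes of the luminal lineage (0.19), 32 SR and speckle splicing factors (-0.10), 34 type I interferon response genes (-0.14) and 32 genes each of the G1/S and G2/M phases (-0.19 and -0.34). Likewise none was called of 28 hypoxia and glycolysis genes, of which 25 were positive (0.21), or of 34 cytoplasmic ribosomal protein genes (0.03). Endothelial markers, 15 of 19 positive (0.26), held no called gene and summed to 46.1 to 191 CPM in ASO2 and 42.5 to 121 CPM in Mock organoids. Skeletal muscle markers, 13 of 14 positive (0.75), held none either and summed to 169.8 to 426 CPM in ASO2 and 159 to 357 CPM in Mock organoids. At an unadjusted p under 0.05 edgeR held 4 of the milk, 11 of the luminal, 5 of the splicing, 0 of the interferon, 2 of the G1/S, 1 of the G2/M, 5 of the hypoxia, 5 of the ribosomal, 5 of the endothelial and 4 of the muscle genes, against 16.2% of all genes. DESeq2, which called 884 of 17126 genes, called 4 luminal genes, 2 splicing factors and 2 hypoxia genes. It called 1 gene each of the milk, ribosomal, endothelial and muscle groups and 0 of the interferon, G1/S and G2/M groups. limma, which called 476 of 17126 genes, called 2 luminal and 2 hypoxia genes, 1 milk and 1 splicing gene, and 0 of the others. Without ASO2 n1 the medians were -0.11 for the milk, 0.04 for the luminal, -0.13 for the splicing and -0.35 for the interferon genes. They were 0.00302 for the G1/S genes, of which 16 of 32 were negative against 26 over all libraries, and 0.06 for the hypoxia genes, of which 19 were positive. They were -0.07 for the ribosomal, 0.24 for the endothelial and 0.47 for the muscle genes. In that fit 1 luminal gene, Xbp1, was called, against 0.932% of all genes. The 32 G2/M genes all had a negative log2 fold change over all libraries. Without ASO2 n1 their median was -0.14 and 3 of 32 were positive. The G2/M genes together held 1162 CPM in ASO2 n1 against 2597 CPM in Mock n1, and 1078 to 1945 CPM in ASO2 n2, n3 and n4 against 1309.5 to 1885 CPM in their Mock partners. Nuf2, a kinetochore protein, was at 9.67, 7.25, 15.2 and 14.6 CPM in ASO2 n1 to n4, against 21.3, 10.3, 18.6 and 17.3 CPM in Mock n1 to n4 (log2 fold change -0.52 ± 0.22, adjusted p = 0.268). Elf5, a transcription factor of milk-secreting alveolar cells, was at 183, 175, 245 and 118 CPM in ASO2 n1 to n4, against 316, 259.7, 263 and 150.2 CPM in Mock n1 to n4 (log2 fold change -0.43 ± 0.16, adjusted p = 0.187). ASO2 minus Mock of Elf5 was -0.79, -0.57, -0.10 and -0.35 on the log2 CPM scale in pairs 1 to 4, below 0 each time. Srsf11, an SR-type splicing factor, was at 207, 172, 176 and 185 CPM in ASO2 n1 to n4, against 224, 219, 224 and 223 CPM in Mock n1 to n4. The groups did not overlap, and its difference of -0.27 ± 0.07 missed the threshold (adjusted p = 0.0638).

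**Figure D4:**
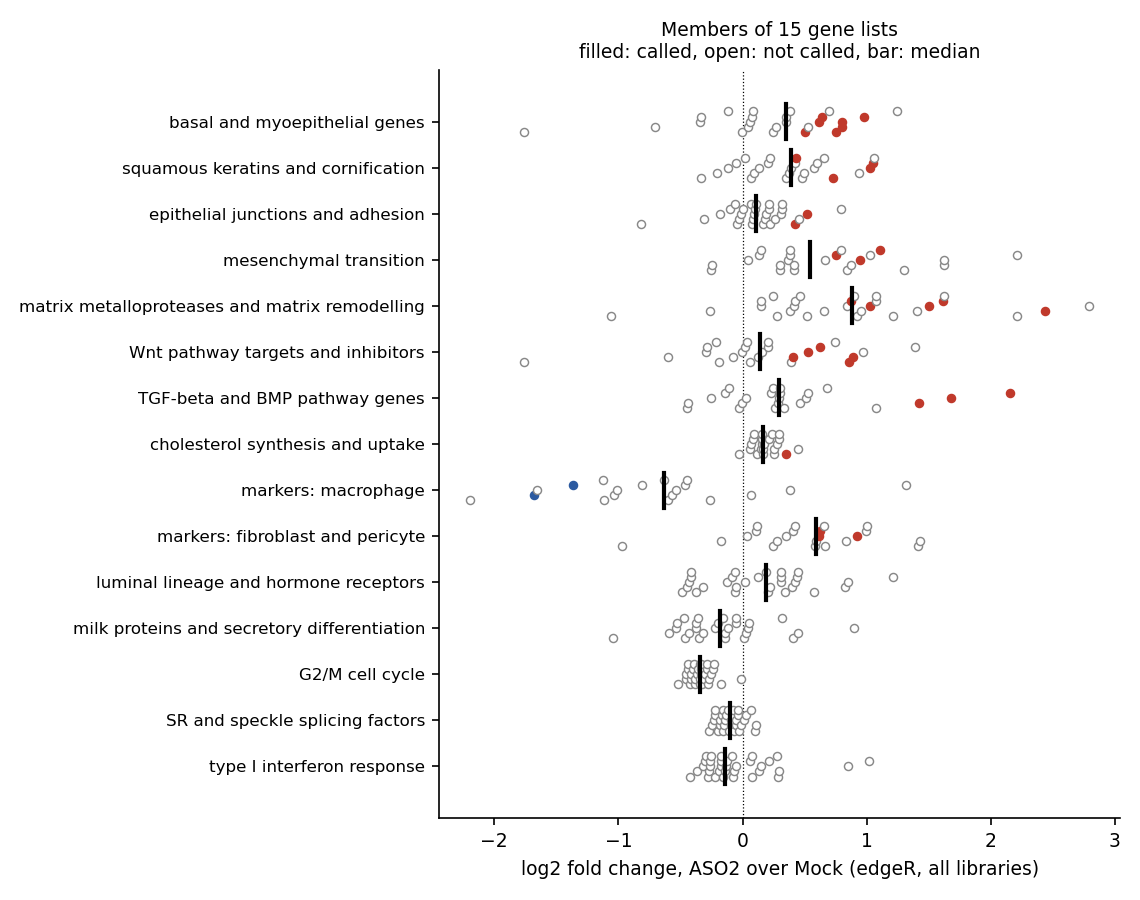
Log2 fold change of ASO2 over Mock (edgeR, all libraries) for the tested members of 15 gene lists, 1 point for each gene, filled where called, with the list's median as a bar. Among the 15 lists drawn, medians lie highest for matrix remodelling (0.88), fibroblast and pericyte markers (0.59) and mesenchymal genes (0.54). The lowest of these 15 is that of the macrophage markers (-0.64).

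The other oligonucleotides were given at the same dose and time. Many of the genes named above differed from Mock in the same direction with ASO1 and with the control scASO. The 3 comparisons share the 4 Mock libraries and so are not independent. Against Mock, edgeR called 407 genes for ASO1 (2.38%) and 128 for scASO (0.747%). The log2 fold changes over Mock of Grem1 were 1.42 ± 0.20 for ASO2, 1.76 ± 0.20 for ASO1 and 1.93 ± 0.21 for scASO. For Lrrc8c they were 0.78 ± 0.09 for ASO2, 0.96 ± 0.09 for ASO1 and 0.90 ± 0.09 for scASO. For Vim they were 0.76 ± 0.13 for ASO2, 0.95 ± 0.14 for ASO1 and 0.92 ± 0.14 for scASO. For Krt14 they were 0.80 ± 0.13 for ASO2, 0.80 ± 0.13 for ASO1 and 0.47 ± 0.13 for scASO, and the scASO value missed the threshold (adjusted p = 0.12). For Ptprc they were -1.68 ± 0.24 for ASO2, -0.88 ± 0.23 for ASO1 and -0.01 ± 0.23 for scASO, with adjusted p of 0.062 for ASO1 and 0.989 for scASO. List medians over Mock were 0.35 with ASO2, 0.29 with ASO1 and 0.28 with scASO for the basal genes. They were 0.54 with ASO2, 0.67 with ASO1 and 0.52 with scASO for the mesenchymal genes and 0.88 with ASO2, 0.92 with ASO1 and 0.56 with scASO for the matrix genes. For the macrophage markers they were -0.64 with ASO2, -0.32 with ASO1 and 0.21 with scASO. Without ASO2 n1 the basal medians were 0.32 with ASO2 and 0.29 with scASO. In the same order they were 0.49 and 0.57 for the mesenchymal genes and 0.64 and 0.61 for the matrix genes. For the macrophage markers they were then -0.72 and 0.21. The scASO group includes n2, whose Malat1 level goes against its label.

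Direct tests between oligonucleotides, 2 pairs with ASO2, were adjusted over all genes in each pair. Between ASO2 and scASO organoids, edgeR called 0 genes (3544 at an unadjusted p under 0.05), limma 11 and DESeq2 535. Without ASO2 n4 edgeR called 284, and without ASO2 n1 it called 2, or 0.0115% of genes, both lower in ASO2. These were Ptprc, with a log2 difference of -1.92 (95% interval -2.36 to -1.48) and an adjusted p of 0.0209, and Atg4c, with -0.97 (95% interval -1.23 to -0.72) and 0.0452. Over all libraries the difference of ASO2 minus scASO was -1.67 (95% interval -2.15 to -1.19) for Ptprc, -1.68 (95% interval -2.25 to -1.1) for C1qa, 1.66 (95% interval 0.61 to 2.72) for Dynap and 0.33 (95% interval 0.07 to 0.58) for Krt14. It was -0.50 (95% interval -0.89 to -0.12) for Grem1 and -0.13 (95% interval -0.30 to 0.05) for Lrrc8c. None of these passed the adjustment, which does not show that ASO2 and scASO act alike.

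Between ASO2 and ASO1 organoids, edgeR called 0 genes (342 at an unadjusted p under 0.05), limma 0 and DESeq2 1. Malat1 differed by 1.63 ± 0.68 over all libraries (95% interval 0.31 to 2.96) and by 0.67 ± 0.55 without ASO2 n1 (95% interval -0.41 to 1.75). Krt14 differed by 0.01 (95% interval -0.25 to 0.26), Lrrc8c by -0.18 (95% interval -0.35 to -0.01) and Mmp10 by -0.81 (95% interval -1.67 to 0.06). The interval of Lrrc8c leaves out 0, whereas its unadjusted p by edgeR was 0.0634. For Ptprc the difference was -0.79 (95% interval -1.28 to -0.30), with an adjusted p of 1.

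**Figure D5:**
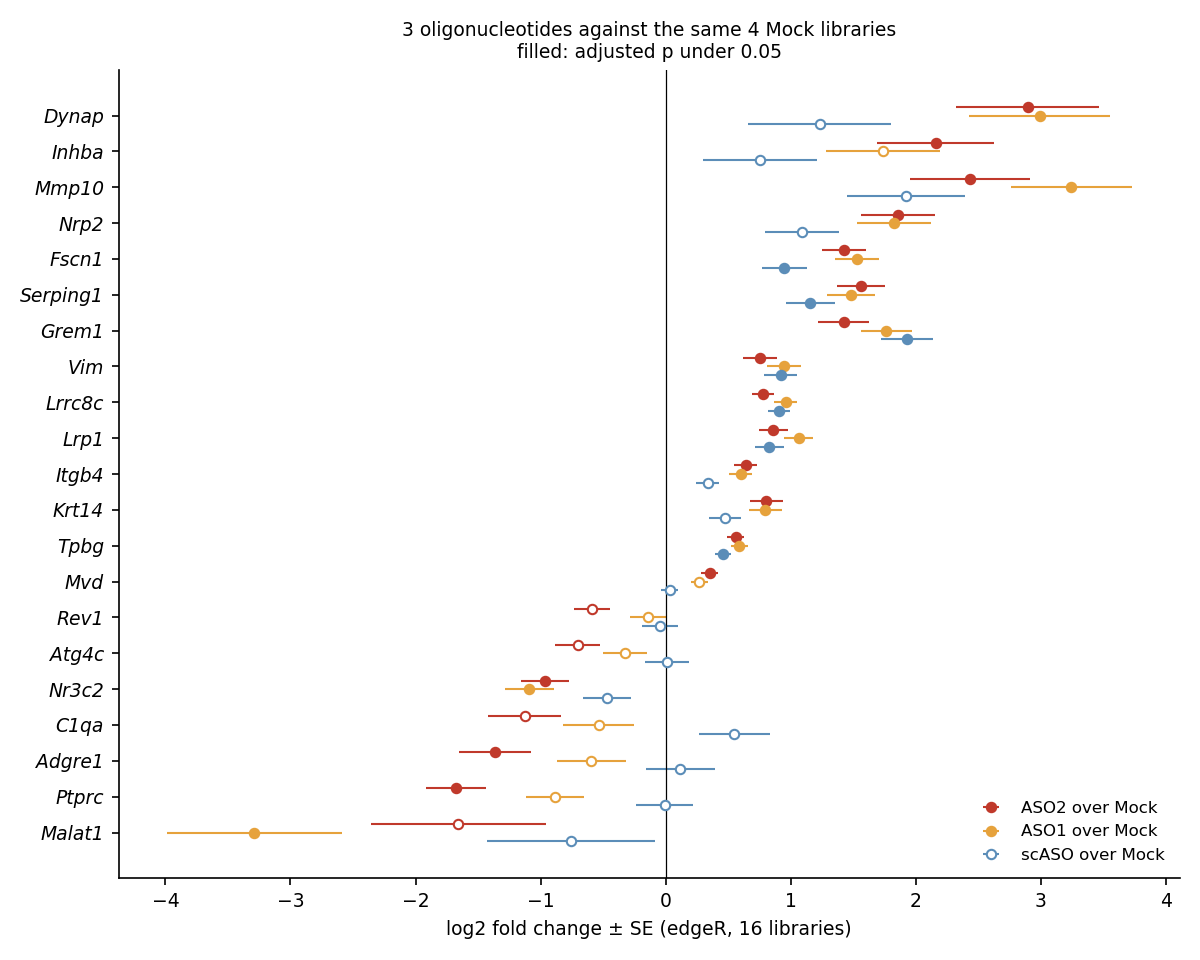
Log2 fold change ± SE over Mock (edgeR, 16 organoid libraries) for named genes with ASO2 (red), ASO1 (yellow) and scASO (blue), filled where the adjusted p is under 0.05. All 3 share the Mock libraries. Grem1, Lrrc8c, Vim, Serping1, Fscn1, Lrp1 and Tpbg are filled for all 3. Inhba, Mvd, Ptprc and Adgre1 are filled for ASO2 alone, a contrast the direct tests over all libraries did not pass.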

How the data were processed

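Polyadenylated RNA of organoids, extracted with TRIzol, was sequenced after TruSeq library preparation, per the labels' protocols. The authors deposited whole-number read counts per Ensembl gene for each library, not normalized. The tools HTSeq, STAR, CASAVA, FastQC and DESeq2 and the mm9 build are named, per the submitters' processing notes, with versions not given in the sources used here. In all, each file held 37310 gene IDs, of which 32620 were matched to a symbol, and 5 lines of unassigned reads, which were left out. Unassigned reads were set against the reads assigned to genes in each of the 16 organoid libraries. Relative to these, reads without a feature amounted to 8.34% to 14.6%, ambiguous reads to 4.44% to 8.70% and reads aligned to several places to 21.2% to 32.7%. Strandedness is not stated and reads aligned to several places were not counted, so keratins and other near-identical, overlapping or antisense genes are uncertain.

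Genes were tested with edgeR 4.0.16 in R 4.3.3 (TMM normalization, quasi-likelihood F-test, replicate number as a block), with Benjamini-Hochberg adjustment over all genes tested and a threshold of 0.05. The 16 organoid libraries were fitted together, after filterByExpr (minimum count 10, minimum total 15). CPM used TMM library sizes, and log2 CPM had a prior count of 2. Reads on genes ranged over about 23973500 to 65146000, so 1 CPM stands for about 24.0 to 65.1 reads. The SE of a log2 fold change is its size over the root of F. Intervals are 95% with a normal factor on this SE, so they are narrower than the quasi-likelihood test would give. Malat1 and Neat1 were also tested by exact permutation. Alternatives were limma 3.58.1 (voom with quality weights), DESeq2 1.42.0, DESeq2 size factors, no filter, no block, the compared groups alone and leaving out libraries. The test was checked on simulated counts.

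The titles number the libraries of all 4 groups. Same-numbered libraries deviated together in 24 of 24 pairs of groups (r 0.469 to 0.933, median 0.817), and the number was kept as a block. Libraries of other numbers had a median of -0.32 and reached 0.800, and 14 of 72 such pairs exceeded 0.1. Deviations from a group mean cancel out within the group, so negative correlations between other numbers follow from positive ones between the same number. No organoid library was a duplicate of another (chi-square per degree of freedom of 13.7 or more in 120 pairs). The comparison, its members and the gene lists were chosen with earlier results of these data known, and no set test was made. Named genes were Malat1, Neat1 and, in each fit, called genes whose mean log2 CPM reached 1. Per direction these were up to 10 with the largest change and the same sign in pairs 2, 3 and 4, and up to 5 with the smallest p. To these came up to 4 members per described list by p and its most abundant member, described where they passed the test or the text turns on them. Frmd8, Krt17, Col17a1, Tnc, Wnt5a, Fosl1, Ereg, Cxcl3, Cd68, Cd163, Ly86, Dock2, Ivd, Pcca, Acad8, Nfkb2, Nfkbie, Tnip1, Tnip3, Plxnd1, Krt31, Krt73 and Krt28 were chosen after their values were seen. Tumor libraries of the series were not used here. Some genes are not reported here and were left out of the list that held them.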

Additional observations from a re-analysis of the deposited data

Results flagged for a closer look

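Of 288 sets of 4 values examined over 96 genes (CPM of the ASO2 libraries, CPM of the Mock libraries and the differences within pairs), 30 held a library or pair far from the others by Dixon's criterion (critical value 0.829). The criterion flags about 5% of sets of independent, normally distributed values. The sets here share libraries, so the 30 cannot be weighed against that share. Most of the 30 concerned the libraries numbered 4. Krt73, Krt28 and Krt31, keratins of hair follicles, were at 1015, 425 and 7.39 CPM in ASO2 n4 and at 405, 151 and 0.280 CPM in Mock n4, while all other ASO2 and Mock libraries held under 1 CPM. The difference of pair 4 in Krt31 was 4.49 on the log2 CPM scale. Bmp4 and Wnt5a were at 53.2 and 120.3 CPM in ASO2 n4 and at 20.8 and 61.5 CPM in Mock n4, far above the others of their groups. Dsp and Krt6a stood out in ASO2 n4, at 3069.9 and 1401 CPM. Mock n4 stood apart in Krt14 (1929.6 CPM), Krt17 (876 CPM), Sfn (794 CPM), Ppl (310.0 CPM), Dsg3 (251 CPM) and Neat1 (1661 CPM).

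Malat1 was at 1343 CPM in ASO2 n1, the library that goes against its label. Bex2 was at 11 CPM in ASO2 n3 and 14 CPM in Mock n3, higher than in the others of each group. Col17a1 and Tpbg were low in Mock n3, at 116 and 14 CPM. Il15ra was high in Mock n2, at 43.3 CPM, and Srsf11 was low there, at 219 CPM against 223 to 224 CPM in the other Mock libraries. The proliferation marker Mki67 was at 710.0 CPM in Mock n1. The within-pair difference of Fads3 in pair 2, 1.28, of Gsn in pair 1, 0.961, and of Capn6 in pair 2, -2.38, lay apart from the other pairs on the log2 CPM scale.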

How the results depend on the processing

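The counts of called genes depended on the design. With all libraries 312 genes were called, against 0 without the replicate block, 0 with the compared groups alone, 884 with DESeq2, 476 with limma, 593 without ASO2 n1 and scASO n2, and 11 to 267 with 1 library left out. The 162 calls without ASO2 n1 became 0 without the block, 0 with the compared groups alone, 275 with no filter, 682 with DESeq2, 995 with limma, 593 without scASO n2 as well, and 1 to 68 with a further library left out. ASO2 against scASO had 0 calls, with 11 under no filter, 535 with DESeq2, 11 with limma, 3 without ASO2 n1 and scASO n2, and 0 to 284 with 1 library left out. ASO2 against ASO1 had 1 call with DESeq2. The Malat1 log2 ratio was -2.48 to -1.18 with 1 library left out, past the threshold without ASO2 n1 alone; permuted within pairs (exact permutation) it gave p = 0.25, where 0.125 is the smallest possible.

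Over the 96 named genes, 882 of 1435 alternative values kept their direction and side of the threshold, 533 fell short of it, 17 passed it and 3 turned round. Those were Krt28 without Mock n4 (-0.66, in a range of -0.66 to 3.06 with 1 library left out) and Neat1 with limma (0.0211) and without ASO2 n1 and scASO n2 (0.0071). The cause was not tested. Genes under 1 CPM rest on few reads.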

Other observations

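The genes named here were picked after their values were seen, with no list fixed for them and no count of related genes that were not called. Nfkb2, which encodes a subunit precursor of NF-kB, was at 121, 156, 70.9 and 95.2 CPM in ASO2 n1 to n4, against 113, 107, 57.9 and 68.9 CPM in Mock n1 to n4. Nfkbie, an inhibitor that holds this factor in the cytoplasm, was at 39.1, 52.9, 15.6 and 17.1 CPM in ASO2 n1 to n4, against 25.7, 32.7, 10.8 and 12.7 CPM in Mock n1 to n4. Each ASO2 library exceeded its Mock partner in both, and the groups overlapped. Nfkb2 rose by 0.35 ± 0.08 and Nfkbie by 0.57 ± 0.13 (adjusted p = 0.0387 and 0.0423). Tnip1 and Tnip3, which bind the A20 regulator of the same pathway, rose by 0.42 ± 0.10 and 0.95 ± 0.19 (adjusted p = 0.0473 and 0.0285). Without ASO2 n1, Nfkb2 stayed called (adjusted p = 0.0344), and Nfkbie, Tnip1 and Tnip3 did not (adjusted p = 0.098, 0.0529 and 0.0717). Plxnd1, a receptor of semaphorins, was at 19.7, 28.7, 8.85 and 14.5 CPM in ASO2 n1 to n4, against 13.3, 14.5, 5.01 and 7.95 CPM in Mock n1 to n4. It rose by 0.81 ± 0.12 (adjusted p = 0.0101), also without ASO2 n1 (adjusted p = 0.0109).

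Dbt, the core of the branched-chain ketoacid dehydrogenase, was at 30.8, 24.5, 41.0 and 33.0 CPM in ASO2 n1 to n4, against 41.8, 37.3, 52.1 and 42.4 CPM in Mock n1 to n4. The 4 pairs differed by -0.44, -0.60, -0.35 and -0.36 on the log2 CPM scale, and Dbt fell by 0.43 ± 0.07 (adjusted p = 0.0132). Ivd, the isovaleryl-CoA dehydrogenase of leucine breakdown, was at 33.7, 33.3, 67.4 and 46.7 CPM in ASO2 n1 to n4, against 50.4, 49.7, 77.3 and 57.3 CPM in Mock n1 to n4. Each ASO2 library lay below its partner, and Ivd fell by 0.41 ± 0.08 (adjusted p = 0.0268). Pcca, a subunit of propionyl-CoA carboxylase, and Acad8, the isobutyryl-CoA dehydrogenase of valine breakdown, fell by 0.32 ± 0.07 and 0.31 ± 0.06 (adjusted p = 0.0365 and 0.0326). Without ASO2 n1, Dbt stayed called (adjusted p = 0.0328), and Ivd, Pcca and Acad8 did not (adjusted p = 0.0659, 0.0686 and 0.0686).

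The hair keratins Krt73 and Krt28 each rose by 1.5 over all libraries, with SEs of 0.26 and 0.30 (adjusted p = 0.0154 and 0.0279). Nearly all of their reads were in the libraries numbered 4. Without Mock n4 the log2 fold change of Krt28 was -0.66. Krt31 had no read in Mock n1, n2 and n3 or in ASO2 n3, and was at 7.39 CPM in ASO2 n4 against 0.280 CPM in Mock n4 (adjusted p = 0.0101).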
